A study of Mus musculus with 2 samples.

Results

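Papillary Wnt-responsive fibroblasts were taken as the barcodes that carried at least 1 transcript of Apcdd1, Axin2, Col23a1, Nkd1, Nkd2, Lrig1 or Rspo1 in single-cell RNA sequencing of mouse dermis. A barcode stands for 1 droplet, and a transcript is counted once through its unique molecular identifier (UMI). Barcodes had to show 200 to 5000 detected genes and at most 10% of UMIs from mitochondrial genes. These limits left 1301 barcodes of the library from untreated skin (UT) and 1043 of the library from imiquimod-treated skin (IMQ), and 279 and 104 of them carried a marker UMI, 383 members in all. The members were thus chosen by their counts of these 7 genes, so the levels of the 7 genes, and their ratios between the libraries and among themselves, are given as a description. Members were compared with other barcodes over the other genes. The name of the members is the label of this rule, not a finding. Without a small set of barcodes described below, no measured papillary marker reached the limit for a gene to be called higher. A few UT members carried markers of keratinocytes or endothelium.

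Both libraries came from the dermis of 8-week-old C57BL/6 mice with the genotype PdgfraDreER-tdTomato, in which tamoxifen activates tdTomato wherever Pdgfra, a receptor gene widely used to mark fibroblasts, is active at that time, and later progeny stay labelled. The sort kept live tdTomato+ cells without CD45, the antigen shared by leukocytes. Imiquimod, a Toll-like receptor agonist that elicits psoriasis-like inflammation in mouse skin, had been applied for 7 days in the IMQ group and not in the UT group. There was 1 library per group, the number of mice behind each is not given in the sources used here, and treatment, library, software version and depth cannot be told apart. No test was therefore run, and all intervals are exact 95% intervals of the counts that cover counting error only.

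Wnt ligands bind Frizzled receptors and LRP co-receptors and thereby stabilise beta-catenin, which turns on target genes together with TCF and LEF factors. Axin2, Nkd1, Nkd2 and Apcdd1 are such targets and restrain the pathway in turn, Rspo1 encodes a secreted enhancer of Wnt signalling, Lrig1 a transmembrane regulator of growth factor receptors and Col23a1 a transmembrane collagen. Papillary fibroblasts form the upper dermis beneath the epidermis, where beta-catenin activity is linked to dermal fate and hair follicle formation.

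The libraries were shallow, and a few barcodes stood apart from the rest. The UT library held 1415 barcodes with 1524079 UMIs and the IMQ library 5047 barcodes with 2358303 UMIs, and 1 barcode sequence was shared between them. The members held 459731 UMIs in UT and 124359 in IMQ. The median member carried 1016 UMIs in UT and 811.5 in IMQ, and the median barcode without a marker UMI 681 and 675. The transcript Gm42418, which overlaps ribosomal RNA sequence, took a median of 1.07% of the UMIs of a UT member and 15.4% of those of an IMQ member. Malat1, a long noncoding RNA that stays in the nucleus, was absent from most barcodes. Only 35 UT and 9 IMQ barcodes within the limits had at least 10 Malat1 UMIs, and 28 and 5 of these were members. Values are given below with and without these barcodes, a split that was chosen after the data had been seen.

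In UT 21.4% of barcodes were members (Clopper-Pearson, 19.2% to 23.8%), and in IMQ 9.97% were (8.22% to 12.0%). Deeper barcodes have more chances to show a marker, so each barcode was also thinned at random to 400 UMIs. The share was then 10.2% in UT (123 of 1205 barcodes, 8.56% to 12.1%) and 5.44% in IMQ (54 of 993, 4.11% to 7.04%), with 96 and 50 shallower barcodes left out. The UT share was above the IMQ share both before and after thinning, and the intervals did not overlap. Thinning made total UMIs equal, but not the UMIs left for genes other than Gm42418. Gm42418 took a median of 1.07% of the UMIs of a UT member and 15.4% of those of an IMQ member. The median gene was also lower in IMQ, at a log2 ratio of -0.55 in members and -0.66 in barcodes without a marker. Whether the lower IMQ share was particular to the markers was not tested. Cells that should lack the markers were too few to set a background share, since 0 of 3 UT and 0 of 4 IMQ barcodes with at least 10 class II antigen UMIs carried a marker, at median depths of 2062 and 593.5 UMIs. How much of the marker count came from free RNA was not tested.

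Rspo1 gave the most marker UMIs in both libraries. In UT its 192 UMIs lay in 156 barcodes, and in IMQ its 64 UMIs lay in 59 barcodes. Nkd1 followed with 69 UMIs in 56 UT barcodes and 31 in 25 IMQ barcodes. Col23a1 had 67 UMIs in 40 UT barcodes and 14 in 10 IMQ barcodes, and Nkd2 had 46 in 36 and 5 in 4. Apcdd1, Axin2 and Lrig1 were the sparsest, with 26, 25 and 21 UMIs in UT and 5, 4 and 8 in IMQ. Most members rested on a single molecule, since 190 of the 279 UT members (68.1%) and 82 of the 104 IMQ members (78.8%) had exactly 1 marker UMI. At least 2 of the 7 genes were seen in 52 UT and 8 IMQ members. Just inside the limit, members with a sum of 1 had a median of 877 UMIs in UT and 771 in IMQ, against 681 and 675 just outside it at a sum of 0, and members with a sum of 2 had 1225 and 1098.

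**Figure D1:**
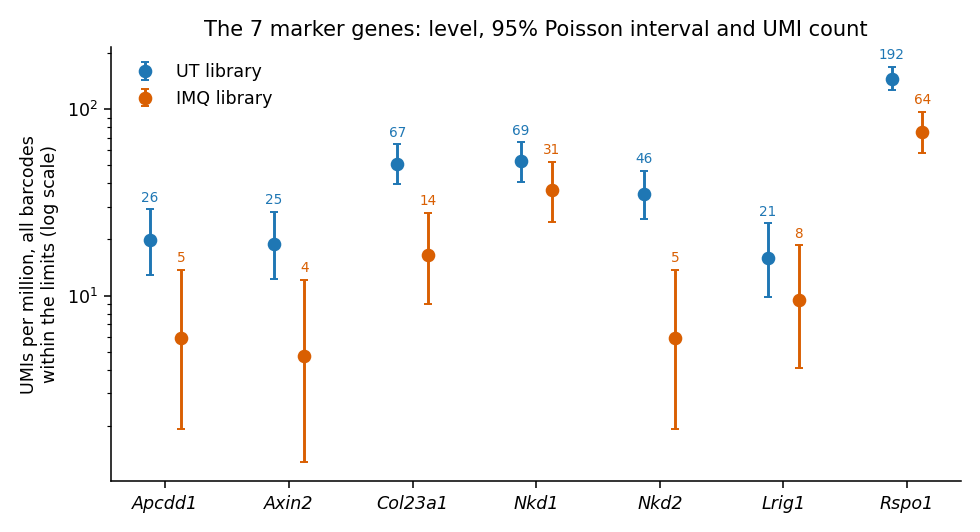
Level of each of the 7 marker genes in CPM, its UMIs scaled to a common total, over all barcodes within the limits (log axis), with the exact 95% Poisson interval and the UMI count above each point, for the UT library (blue) and the IMQ library (orange). Each gene sits lower in IMQ, and the intervals of Axin2, Col23a1, Nkd2 and Rspo1 do not overlap between the libraries. Levels are raw and not set against the median gene, which was itself lower in IMQ.

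Over all barcodes within the limits, the summed marker level was lower in IMQ than in UT, at a log2 ratio of -1.13 (conditional binomial interval -1.42 to -0.85). This and the marker ratios that follow are raw. The median gene was itself lower in IMQ, at -0.55 in members and -0.66 in barcodes without a marker. Nkd2 had the lowest ratio at -2.57 (-4.25 to -1.24), followed by Axin2 at -2.01 (-3.99 to -0.47), Apcdd1 at -1.74 (-3.48 to -0.34) and Col23a1 at -1.62 (-2.57 to -0.78). Rspo1 was at -0.95 (-1.38 to -0.53). The intervals of Nkd1, -0.52 (-1.18 to 0.11), and Lrig1, -0.76 (-2.14 to 0.48), covered 0. In barcodes with under 10 Malat1 UMIs the summed ratio was -0.98 (-1.29 to -0.67).

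To see whether the 7 genes marked the same barcodes, the other 6 were summed in barcodes with a UMI of 1 gene and in depth-matched barcodes without it. In UT, barcodes with Col23a1 held more UMIs of the other 6 than their matches, at a log2 ratio of 1.59 (0.82 to 2.42), as did those with Nkd1 (1.37, from 0.50 to 2.30) and Nkd2 (1.08, from 0.42 to 1.77). For Rspo1, the gene behind 156 of the 279 UT members, the ratio was 0.21 with an interval from -0.33 to 0.76. The intervals of Apcdd1, Axin2 and Lrig1 covered 0 as well. In UT barcodes with under 10 Malat1 UMIs, Nkd2 alone of the 7 had an interval above 0, at 1.99 (0.36 to 4.03), and Rspo1 was at 0.54 (-0.26 to 1.37). In IMQ no interval lay above 0 for any of the 7, with at most 7 UMIs of the other 6 on the marker side.

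Members were next compared with barcodes of the same library that had a marker sum of 0, each member paired with 1 barcode whose total differed by at most 0.5 on the log2 scale. A pair was found for 270 UT and 100 IMQ members. The 9 UT and 4 IMQ members without a pair were deep, with at least 5070 and 5246 UMIs. Some deeper members did have a pair, among them the deepest IMQ member at 10782 UMIs and a UT member at 9298. Paired sets were alike in median depth and RNA quality, but less so among the deepest barcodes. Paired UT members summed to 370677 UMIs and their pairs to 335676, against 98409 and 102584 in IMQ. Over 2000 UMIs there were 62 UT members and 34 UT barcodes without a marker. The median total was 973.5 UMIs in UT members and 973 in their pairs, the median mitochondrial share 2.92% and 3.01%, and the median number of detected genes 486 and 458. In IMQ these were 795 and 794 UMIs, 4.41% and 4.37%, and 306.5 and 300.5 genes. The sets differed in Malat1, since 22 UT members but 7 of their pairs had at least 10 Malat1 UMIs, against 1 and 1 in IMQ.

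A gene was measured when it had at least 20 UMIs over both sets, and it was called when the log2 ratio of members over pairs was at least 1 or at most -1. A gene nearly absent from one set passes this minimum only when it is high in the other, so counts and medians within a list are a description of the genes that passed. Of 3762 genes measured in UT, 331 were called higher (8.8%) and 109 lower (2.9%), and the interval of 237 and 59 of them excluded 0. The median gene was at 0.065. Scaling by TMM moved this median to -0.10 and the counts to 245 higher and 167 lower. In IMQ, of 879 genes measured, 49 were called higher (5.57%) and 50 lower (5.69%), and 868 genes were measured in both libraries. Of these, 9 were called higher in both (1.04%), namely Lhfp, Errfi1, Glt8d2, Nrn1, Gas1, Nr4a1, Hspa1a, Ier3 and Neat1, and Cd74 was called lower in both (0.115%). Opposite calls were seen too, with 2 of the 868 genes higher in UT and lower in IMQ and 1 lower in UT and higher in IMQ. When barcodes with at least 10 Malat1 UMIs were left out and members paired again, 120 of 2918 genes were called higher in UT (4.11%) and 84 lower (2.88%). In IMQ the counts were 27 of 732 (3.69%) and 22 (3.01%).

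The genes that led in UT members encode secreted and surface proteins and were almost confined to a few barcodes. Igfbp3, which encodes a binding protein of insulin-like growth factors, had 737 UMIs in 21 of the 270 paired members and 17 UMIs in their pairs, a log2 ratio of 5.29 (4.61 to 6.08). Prlr, the prolactin receptor gene, had 142 UMIs in 17 members and 1 in the pairs (7.01, from 4.51 to 12.3). Slc26a7, an anion transporter gene, had 84 UMIs in 14 members and 0 in the pairs, a log2 ratio of at least 4.66 against 3 counts over the set. Pappa2, a protease that cleaves binding proteins of insulin-like growth factors, had 45 UMIs in 16 members and 0 in the pairs (at least 3.76). Dkk2, a secreted modulator of Wnt signalling, had 179 UMIs in 30 members and 12 in the pairs (3.76, from 2.92 to 4.74). These 5 genes had no interval above 0 once barcodes with at least 10 Malat1 UMIs were left out. Igfbp3 then had 2 UMIs in members and 7 in pairs, Prlr 0 and 0, Slc26a7 and Pappa2 1 and 0 each, and Dkk2 20 and 12 (0.70, from -0.40 to 1.87).

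In the GRCm38 annotation Igfbp3 spans chromosome 11 bases 7206086 to 7213923 (minus strand), Prlr chromosome 15 bases 10177238 to 10349180 (plus) and Slc26a7 chromosome 4 bases 14502430 to 14621805 (minus). Pappa2 spans chromosome 1 bases 158711727 to 158980490 (minus) and Dkk2 chromosome 3 bases 132085292 to 132180304 (plus). Prlr overlaps Gm21973 and Pappa2 overlaps 1600012P17Rik, each on its own strand, so their counts are uncertain as to gene.

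The 20 genes with the highest lower interval bounds in UT were then counted per barcode. Their choice rests on UT members and UT pairs, so the UT counts describe that choice. After these 5 came Hspb1, Slc5a3, Notum, Bmp4, Lef1, Rasd1, Serpine2, Sostdc1, Ifitm1, the agouti gene a, Cyr61, Rspo3, Ncam1, Hspa1a and Bcl2. Of the 28 UT members with at least 10 Malat1 UMIs, 21 had a UMI of at least 8 of the 20 genes, with a median of 12 genes over the 28. None of the 251 other UT members reached 8 genes, and their highest count was 3. None of the 7 UT barcodes with at least 10 Malat1 UMIs and no marker reached 8 either, with a highest count of 4, and all 7 were among the pairs used to choose the genes.

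**Figure D2:**
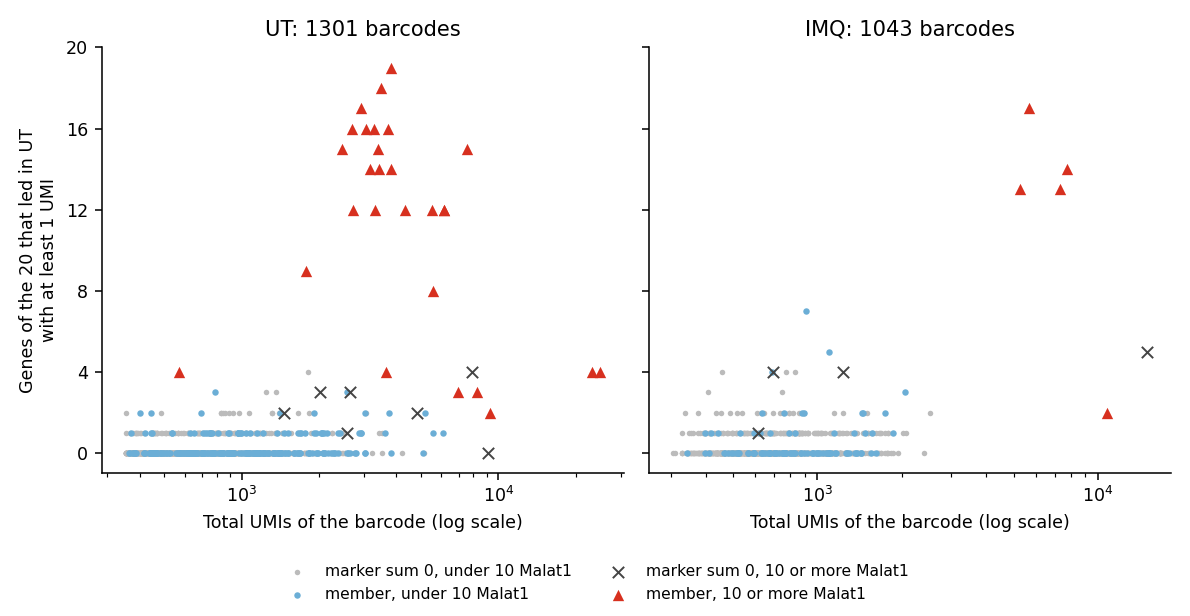
Each point is a barcode of the UT library (left, 1301 barcodes) or the IMQ library (right, 1043 barcodes), with its total UMIs on a log axis and the number of the 20 UT-led genes with a UMI on the vertical axis. Of the members with at least 10 Malat1 UMIs (triangles), 21 of 28 in UT and 4 of 5 in IMQ lie at 8 or more genes, and all other members lie below 8.

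The same genes marked a few members of the IMQ library, which had no part in choosing them. Of the 5 IMQ members with at least 10 Malat1 UMIs, 4 had at least 8 of the 20 genes, with 13, 17, 13 and 14 genes at total depths of 5248, 5689, 7310 and 7713 UMIs. Their Igfbp3 counts were 25, 80, 40 and 39 UMIs, and their Slc26a7 counts were 2, 14, 6 and 5. The other member, at 10782 UMIs, had 2 of the genes and no Igfbp3. None of the 99 other IMQ members reached 8 genes, with a highest count of 7. These 4 barcodes found no free barcode near enough in depth, so IMQ members were also set against all 939 IMQ barcodes without a marker, which are mostly shallower. Of the 20 genes, 17 gave a ratio there, 16 of them at a log2 of 1 or more with an interval above 0. Among all genes measured in that comparison, with at least 20 UMIs, 478 of 2989 were at a log2 of 1 or more. The ratios rest largely on the same few barcodes. The 5 members with at least 10 Malat1 UMIs held 184 of the 197 Igfbp3 UMIs and 27 of the 28 Slc26a7 UMIs of IMQ members. Igfbp3 was at 3.21 (2.88 to 3.54), Prlr at least 5.20, Slc26a7 at 6.35 (4.36 to 9.46), Pappa2 at 4.76 (2.92 to 7.20) and Rasd1, a Ras-related GTPase gene, at 5.97 (4.99 to 7.14). Hspb1, a small heat-shock gene, was at 0.22 (-1.79 to 1.80), and Notum, Sostdc1 and Rspo3 had too few UMIs for a ratio.

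**Figure D3:**
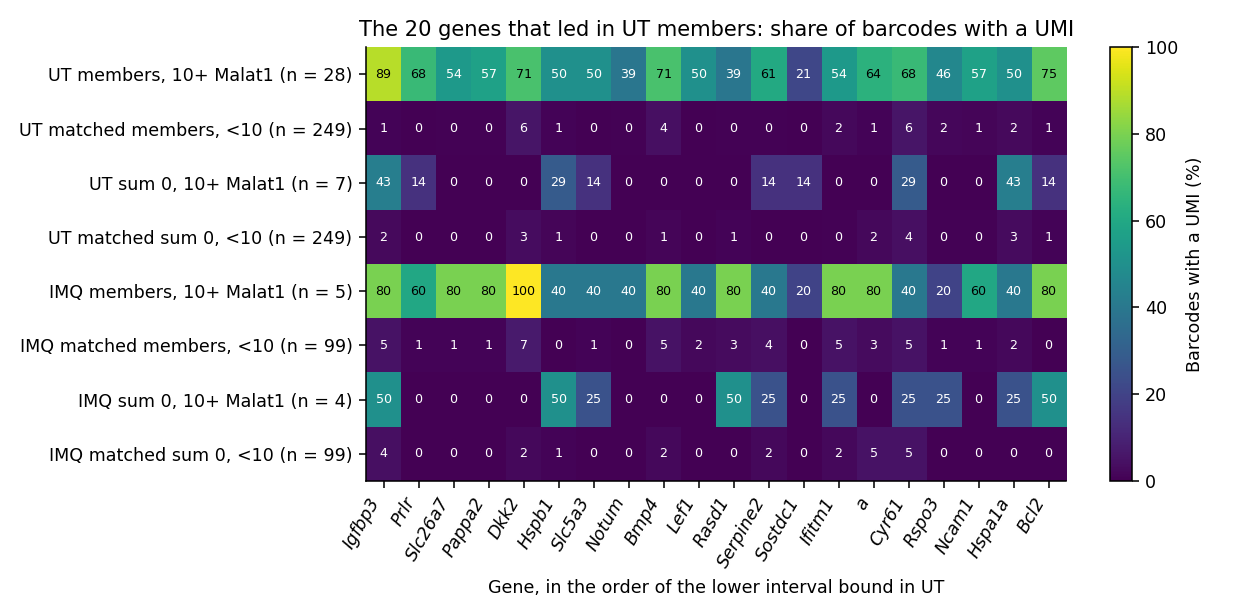
Percent of barcodes with a UMI for each of the 20 genes that led in UT members, in 8 sets of barcodes split by library, by marker sum and by Malat1 count (fewer than 10, or 10 or more). The 2 bright bands are the members with at least 10 Malat1 UMIs in UT (28 barcodes) and IMQ (5 barcodes), while members with fewer Malat1 UMIs lie close to their pairs.

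The 21 UT barcodes that carried at least 8 of the 20 genes were deep and poor in collagen transcripts. Their totals ran from 1775 to 7520 UMIs with a median of 3443, their mitochondrial shares from 0.830% to 3.94%, and Malat1 took 11.2% of their UMIs. Col23a1 was seen in 20 of the 21, Nkd2 in 12, Rspo1 in 9, Apcdd1 and Nkd1 in 4 each, Lrig1 in 3 and Axin2 in 2. The 7 general fibroblast markers together, Col1a1, Col1a2, Col3a1, Dcn, Lum, Dpt and Pdgfra, gave 353 UMIs, 0.429% of their total, with a median of 6 UMIs in a barcode. Col1a1, the gene of a type I collagen chain, was seen in 15 of the 21 and Dcn, which encodes decorin, in 13. Pdgfra was seen in 9 of the 21 and Crabp1, a retinoic acid binding protein gene, in 16, with 171 UMIs. Markers of other cell types were at or near 0, with 8 UMIs for keratinocytes, 1 for endothelium, 1 for mural cells, 4 for myeloid cells and 9 for T cells over all 21 barcodes. The 4 IMQ barcodes were alike in these respects. They held 40 general fibroblast UMIs, 0.154% of their total, Pdgfra in each of the 4, Col23a1 in 3, and no UMI of those 5 other marker lists.

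The remaining 7 UT members with at least 10 Malat1 UMIs were a mixed set. A pair of barcodes with 23202 and 24879 UMIs carried 911 and 956 UMIs of keratinocyte markers. Another, with 8229 UMIs, carried 51 UMIs of endothelial markers. Among the others, 3 carried 924, 825 and 183 general fibroblast UMIs. Over all UT members the general fibroblast markers stood at a level of 14404 CPM, UMIs scaled to a common total, in the 28 barcodes with at least 10 Malat1 UMIs and at 108159 in the 251 others, and in IMQ at 21801 in the 5 and 124128 in the 99. The keratinocyte-marker pair carried 1 and 3 such UMIs, so the presence of a fibroblast UMI alone, seen in 278 of 279 UT and 104 of 104 IMQ members, does not set the label. Whether these barcodes are a cell type of their own was not tested.

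Genes that were higher in members of both libraries were fewer and differed less. Gas1, which encodes a surface protein that binds hedgehog ligands, had 150 UMIs in UT members and 63 in pairs (log2 ratio 1.11, from 0.67 to 1.56), and 38 and 7 in IMQ (2.50, from 1.32 to 3.91), where 23 of the 38 lay in 1 barcode. With fewer than 10 Malat1 UMIs it was at 0.99 (0.50 to 1.51) in UT and 1.32 (-0.13 to 2.98) in IMQ. The Gas1 gene, chromosome 13 bases 60174405 to 60177365 (minus), overlaps Gm48488 of the opposite strand, so its counts are uncertain as to gene. Calm2, a calmodulin gene, was at 0.81 (0.49 to 1.13) in UT and 1.43 (0.43 to 2.53) in IMQ, and at 0.71 (0.36 to 1.07) and 1.12 (0.08 to 2.24) without the barcodes rich in Malat1. S100a4, a calcium-binding protein gene, was at 0.35 (0.23 to 0.46) and 1.13 (0.62 to 1.66), and at 0.46 and 0.84 without them. Tmem50a was at 0.68 (0.22 to 1.16) and 1.25 (0.42 to 2.13), and at 0.63 and 1.04 without them. Calm2, S100a4 and Tmem50a thus had intervals above 0 in both libraries with and without the barcodes rich in Malat1. Other settings moved some of these values, with Calm2 in IMQ at -0.077 when every barcode was thinned first and S100a4 in UT at -0.13 (-0.22 to -0.05) without the depth match. Glt8d2, a glycosyltransferase gene, had 28 and 11 UMIs in UT (1.20, from 0.15 to 2.36) and 21 and 9 in IMQ (1.28, from 0.09 to 2.59).

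Immediate early and stress-response genes made up much of the rest, and single barcodes carried them in IMQ. Ier3 had 48 UMIs in UT members and 8 in pairs (2.44, from 1.35 to 3.73) and 54 and 20 in IMQ (1.49, from 0.73 to 2.31), with 44 of the 54 in 1 barcode. Without the barcodes rich in Malat1 it had 4 and 2 UMIs in UT and 10 and 4 in IMQ and was not measured in either. Errfi1, a feedback inhibitor of the epidermal growth factor receptor, was at 1.05 in UT and 2.20 in IMQ, with 16 of its 22 IMQ UMIs in 1 barcode, and at 0.07 (-0.75 to 0.90) in UT without the barcodes rich in Malat1. Fos was at 1.91 (1.51 to 2.33) in UT and 0.92 (0.36 to 1.49) in IMQ, where 68 of 78 UMIs lay in 1 barcode, and Junb at 1.51 and 0.61. Without the barcodes rich in Malat1 Fos was at 0.31 (-0.28 to 0.90) in UT. Cd9, Vim, Nfkbia, Mt1 and Nupr1 also had intervals above 0 in both libraries, but genes were named here by those interval bounds. Their log2 ratios were 0.21 to 1.17 in UT and 0.30 to 0.93 in IMQ. Without the barcodes rich in Malat1 the intervals of Vim (0.11, from -0.04 to 0.25) and Nfkbia (0.53, from -0.32 to 1.40) covered 0 in UT, that of Mt1 in IMQ (0.04, from -0.36 to 0.44), and that of Cd9 in both (0.31 and 0.53), while Nupr1 was at 0.41 and 0.33 with both intervals above 0. Against all barcodes without a marker, however, Nupr1 was at -0.19 (-0.37 to -0.02) in UT and -0.07 (-0.28 to 0.13) in IMQ.

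Gpx3, which encodes a secreted glutathione peroxidase and is a reticular fibroblast marker, led the 10 genes named as lower in both libraries. It had 307 UMIs in 68 UT members and 493 in 99 pairs (-0.83, from -1.04 to -0.62), and 44 in 31 IMQ members and 146 in 41 pairs (-1.67, from -2.19 to -1.18). Without the barcodes rich in Malat1 it was at -0.70 (-0.92 to -0.48) and -1.76 (-2.29 to -1.26). The gene spans chromosome 11 bases 54902453 to 54910377 (plus). Apoe, the apolipoprotein E gene, was at -0.42 (-0.58 to -0.25) and -0.57 (-0.96 to -0.18), and at -0.68 (-0.89 to -0.47) and -0.47 (-0.87 to -0.07) without those barcodes. Cst3 (-0.36 and -0.94) and Tmsb4x (-0.44 and -0.43) were lower too, but in IMQ 92 of 176 Cst3 UMIs and 69 of 205 Tmsb4x UMIs of the pairs lay in 1 barcode. The collagen genes Col1a2 and Col3a1 and the matrix gene Sparc had log2 ratios of -0.25 to -0.11. In UT these turned to 0.11, 0.02 and 0.02 without the barcodes rich in Malat1, and in IMQ to -0.30, -0.24 and -0.24. Col1a1 went from -0.06 to 0.15 in UT and from -0.06 to -0.21 in IMQ.

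Genes named in 1 library alone often rested on a single deep barcode. In UT, the antigen-presentation genes H2-Aa (0 UMIs in members, 315 in pairs), Cd74 (6 and 1077) and H2-Eb1 (2 and 359) were the lowest, and 210, 710 and 244 of the UMIs of the pairs came from 1 barcode. In IMQ, Cebpb, a transcription factor gene, had 52 UMIs in members and 11 in pairs (2.30, from 1.34 to 3.39), with 29 in 1 barcode, and Gbp2, an interferon-induced GTPase gene, had 17 and 3 (2.56, from 0.77 to 4.98), with 13 in 1 barcode. Sparcl1 (5 and 32, 24 of the 32 in 1 barcode) and Tsc22d1 (3 and 23, 17 of the 23 in 1 barcode) were the lowest in IMQ beside Gpx3.

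Genes of the Wnt pathway were then read by role, ligands first and targets last, beside the 8.8% of all measured UT genes called higher. Among ligands and their secretion, 2 of 24 genes were measured in UT. Rspo3, which encodes a secreted enhancer of Wnt signalling, was called higher with 28 UMIs in 15 members and 1 in the pairs (4.66, from 2.07 to 10.0), and Wls, needed to secrete Wnt proteins, was at 0.34 (-0.31 to 1.01). Of 21 receptor genes 5 were measured and none was called, with Fzd2 at -0.14, Ryk at -0.47 and Lrp6 at 0.23, and a median of -0.14. Of the 24 intracellular components in the files 10 were measured and 2 called higher. Lef1, the gene of a transcription factor that pairs with beta-catenin, had 27 UMIs in 12 members and 0 in the pairs (at least 3.03), and Tcf7l2, a related factor gene, was at 1.21 (0.04 to 2.51). Ctnnb1, the beta-catenin gene, had 69 and 59 UMIs (0.08, from -0.44 to 0.61).

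Target genes and secreted antagonists held most of the calls. Of 16 Wnt target genes 7 were measured in UT and 5 called higher, where 8.8% of all measured genes were. Besides Lef1 these were Notum, a lipase that inactivates Wnt proteins (28 UMIs and 0, at least 3.08), Wif1, a Wnt-binding inhibitor (24 and 1, 4.44), Bmp4, a bone morphogenetic protein (65 and 3, 4.29, from 2.68 to 6.61), and Twist2, a mesenchymal transcription factor gene (50 and 16, 1.50). Lef1, Notum, Wif1 and Bmp4 had at most 3 UMIs in the pairs and could reach 20 only through the members. Twist1 was at 0.81 and Ccnd1 at 0.42. Of 17 secreted antagonists 8 were measured and 4 called higher, against the same 8.8%. These were Dkk2, Sostdc1, whose 40 UMIs lay in 5 barcodes against 2 UMIs in the pairs, and again Notum and Wif1, while Sfrp1 was at 0.24. Most of these UMIs sat in the 28 members with at least 10 Malat1 UMIs. They held all 29 Lef1 UMIs of the UT members, 46 of the 47 Notum UMIs, 58 of 71 Bmp4 UMIs and 24 of 28 Wif1 UMIs, and the 1022 UT barcodes without a marker held no Lef1 or Notum UMI. Without these barcodes 3 target genes were measured and 1 called, Twist2 with 45 and 13 UMIs (1.76, from 0.84 to 2.77), and the median was 0.77. Bmp4 then had 12 and 3 UMIs (1.96) and was not measured. In IMQ only Twist1 was measured, and it was called higher with 24 and 12 UMIs (1.06, from 0.00 to 2.19).

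The papillary fibroblast markers were read beside markers of other dermal compartments. For scale, 8.8% of all genes measured in UT were called higher and 2.9% lower. Of 12 papillary markers 9 were measured in UT and 4 called higher, Lef1, Wif1, Trps1 (46 and 7, 2.57) and Entpd1 (17 and 4, 1.94), where Lef1 and Wif1 are also Wnt targets. Crabp1 was at 0.91 (0.60 to 1.23) with 260 UMIs in 64 members and 125 in the pairs, and Pdpn, Ntn1 and Col18a1 at 0.21, 0.26 and 0.33. Without the barcodes rich in Malat1 4 papillary markers were measured and none called, with a median of 0.33, and Crabp1 was at -0.02 (-0.40 to 0.35) with 120 and 119 UMIs. Of 11 reticular markers 9 were measured and 1 called higher, Thbs4 with 15 and 6 UMIs, whose interval covered 0, and the median was -0.11. Mmp3, a stromelysin gene of that list, was at 0.57 (0.13 to 1.01). Of 9 fascial markers 5 were measured and 1 called lower, Anxa3 at -1.05 (-1.82 to -0.32), and of 10 dermal papilla markers 3 were measured and 2 called higher, Fgf7 with 16 and 5 UMIs and Rspo3. Corin, Prom1, Bmp6 and Alpl of that list had no UMI in any UT member, and Sox2, Sox18 and Hhip had 3, 2 and 5, all of them in the barcodes with at least 10 Malat1 UMIs. The whole dermal papilla list stood at 365 CPM in the 28 such UT members (58 UMIs) and at 69.7 in the 251 others (21 UMIs). In IMQ it stood at 272 in the 5 such members (10 UMIs) and at 22.8 in the 99 others (2 UMIs). The papillary list stood at 2308 and 886 CPM in the same UT sets. In IMQ 1 papillary marker was measured and none called.

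The structural lists differed little between members and pairs. Among all measured genes 8.8% were called higher and 2.9% lower in UT, and 5.57% and 5.69% in IMQ. Of 11 interstitial matrix genes none was called higher and 1 lower in UT, Postn with 3 and 19 UMIs, and the median was -0.16. Of 14 measured basement membrane and FACIT genes 1 was called higher, Lama4 (1.36, from -0.05 to 2.99), while Col4a1 was at 0.93 (0.25 to 1.65), Col16a1 at 0.71 (0.27 to 1.16) and Col6a1 at 0.49 (0.04 to 0.95). Col16a1 and Col6a1 were at 0.67 and 0.63 without the barcodes rich in Malat1. In IMQ 1 of 9 was called lower, Lamc1 with 3 and 18 UMIs (-2.53). Slit2, an axon guidance ligand gene, was the 1 call among 9 measured neurotrophic and axon guidance genes in UT, at 1.26 (0.34 to 2.26) with 37 UMIs in 28 members, and at 1.06 (0.10 to 2.09) without the barcodes rich in Malat1. Id1, a target of bone morphogenetic proteins, had 23 and 2 UMIs in UT (3.38, from 1.36 to 6.51) and 15 and 2 without those barcodes (2.87, from 0.77 to 6.04), while Id3 was at 0.09. In IMQ Cxcl12, a chemokine gene in the axon guidance list, was called lower with 6 and 28 UMIs (-2.16, from -3.72 to -0.86).

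Genes known to respond to tissue dissociation moved with the deep barcodes. Of 12 such genes 8 were called higher in UT, where 8.8% of all measured genes were, with a median of 1.50. They were led by Hspa1a (158 and 23, 2.64), Jun (180 and 39, 2.06), Hspa1b at 1.93 and Fos at 1.91. Without the barcodes rich in Malat1 1 of 10 was called, Jun with 36 and 10 UMIs (1.81), and the median was 0.27. The list stood at 19279 CPM in the 28 UT members with at least 10 Malat1 UMIs and at 1942 in the 251 others. In IMQ 1 of 10 was called higher, Hspa1a, where 5.57% of all measured genes were. The part of dissociation in these values was not tested.

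**Figure D4:**
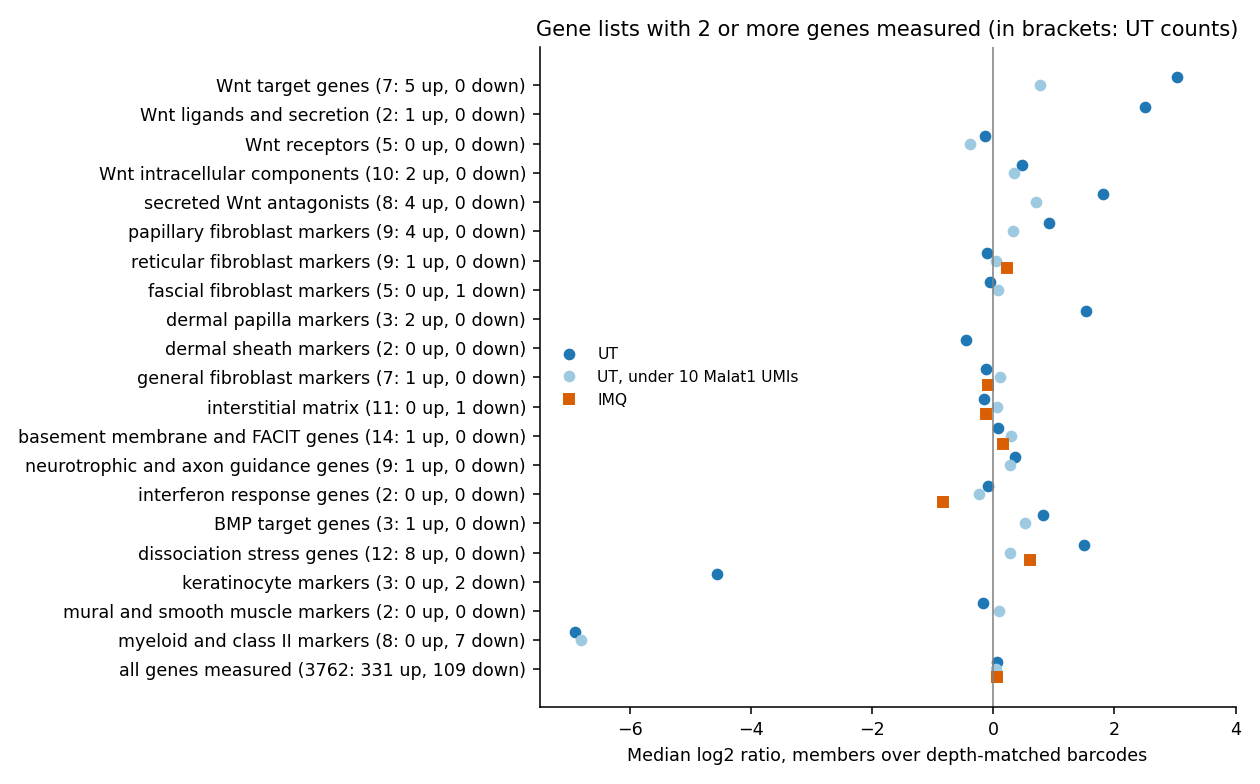
Median log2 ratio of members over depth-matched barcodes for each gene list with at least 2 measured genes, in UT (dark circles), in UT without barcodes of 10 or more Malat1 UMIs (light circles) and in IMQ (squares), with the number of genes measured and called in UT in brackets. Wnt targets, antagonists and dissociation stress genes sit at 1.50 or more in UT and at 0.27 to 0.77 without the Malat1-rich barcodes, and the myeloid list lies below -6. Wnt ligands (2 genes) and dermal papilla markers (3 genes) sit at 2.50 and 1.53 in UT, and without those barcodes each had just 1 gene measured.

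Where keratinocyte, myeloid or endothelial markers were abundant, they lay mostly in single deep barcodes. T cell markers, with 194 UMIs in 103 paired UT members, and mural markers, with 57 in 42, were spread over many barcodes. Keratinocyte markers gave 32 UMIs in 27 UT members and 372 in the pairs, 349 of them in 1 barcode, and myeloid and class II markers gave 19 and 2306, with 1528 in 1 barcode. Endothelial markers gave 52 UMIs in UT members, 51 in 1 barcode, and 0 in the pairs, and in IMQ 1 and 62, all 62 in 1 barcode. Of 8 myeloid and class II genes measured in UT 7 were called lower, and of 3 keratinocyte genes 2 were, against 2.9% of all measured genes. Pairing left out the pair of members richest in keratinocyte markers. Over all 279 UT members these markers gave 1903 UMIs. Against all UT barcodes without a marker 4 of 6 keratinocyte genes were called higher and 2 lower, where 820 and 146 of 5499 measured genes were. Their part in the other ratios was not tested beyond the alternative without class II barcodes, which gave 307 genes higher and 94 lower in UT.

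Within members, IMQ was last set against UT. The median of 3500 measured genes lay at a log2 ratio of -0.55, or -0.32 under TMM, so ratios are given relative to the median gene. On that scale 426 genes were called higher (12.2%) and 534 lower (15.3%). Lars2, the mitochondrial leucyl-tRNA synthetase gene, was at 3.14 in all members and at 3.51 in those with under 10 Malat1 UMIs, with 529 UMIs in 182 UT and 864 in all 104 IMQ members, and at 3.45 in barcodes without a marker. The rRNA-like transcript Gm42418 was at 3.63, 4.24 and 4.02 in these sets, in the same order. Whether the Lars2 counts followed those of Gm42418 was not tested. Another 6 genes named as higher were Mt2, Tnfaip6, H2-Q4, Odc1, Cebpb and Zfand5, at 2.95 to 3.67. The 5 IMQ members rich in Malat1 held most of the IMQ UMIs of these 6. Mt2, a metallothionein gene, was at 0.54 without them. Tnfaip6, a hyaluronan-binding protein gene, had 135 of its 153 IMQ UMIs in 1 barcode and was at -1.51 without the members rich in Malat1.

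Igfbp2 and Ccnd2 were lower in IMQ members with and without those rich in Malat1, and lower in IMQ barcodes without a marker as well. Igfbp2, another binding protein of insulin-like growth factors, had 373 UMIs in 55 UT members and 9 in 5 IMQ members, a raw log2 ratio of -3.49 (-4.63 to -2.55), and it was at -2.94 relative to the median gene with and without these members. Barcodes without a marker were at -1.50, and the depth-matched ones among them, with 139 UMIs in UT and 0 in IMQ, at most -3.21. Ccnd2, the cyclin D2 gene, had 74 UMIs in 47 UT members and 0 in IMQ members, at most -2.19 relative to the median gene and at most -2.11 without the members rich in Malat1. For Ccnd2, barcodes without a marker were at -1.67, and the depth-matched ones, with 46 UMIs in UT and 1 in IMQ, at -3.20. Neither fall was thus particular to members. The other 6 genes named as lower were the keratinocyte-type genes Krt10, Lgals7, Sbsn and Sfn and the heat-shock genes Hspa1b and Hspb1. Krt10 had 1081 UMIs in UT members, 545 of them in 1 barcode, and none in IMQ members. These 6 genes had at most 21 UMIs each in UT members with fewer than 10 Malat1 UMIs. Crabp1 had 292 UMIs in 68 UT members and 37 in 5 IMQ members, at -0.55 relative to the median gene. Without the members rich in Malat1 it had 120 and 6 UMIs and was at -1.89, and barcodes without a marker were at -2.66.

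**Figure D5:**
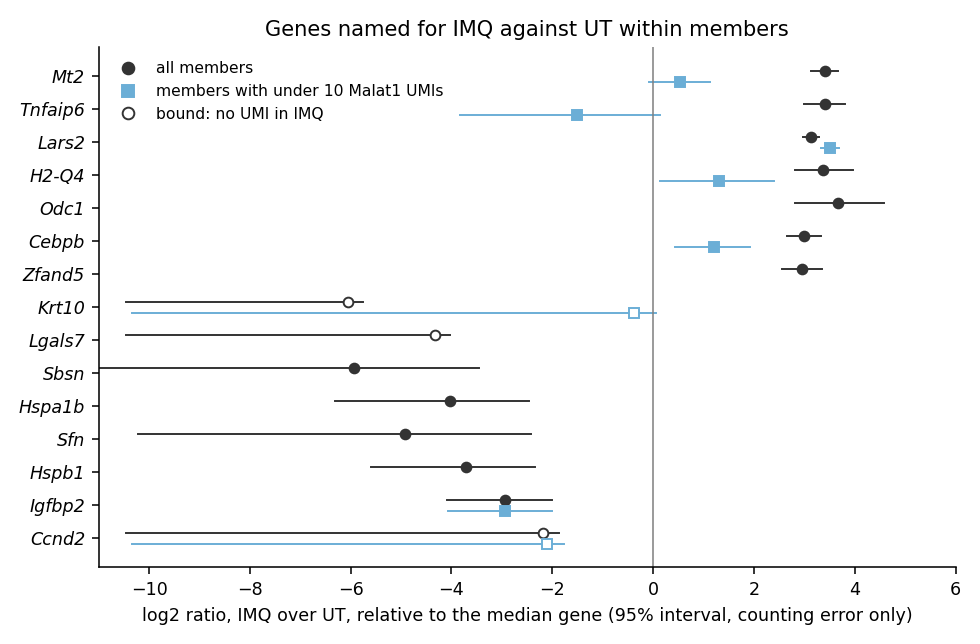
Log2 ratio of IMQ over UT within members, relative to the median gene, with the 95% counting interval, for 7 genes named as higher and 8 named as lower, over all members (black) and over members with under 10 Malat1 UMIs (blue, where at least 20 UMIs were counted), with open symbols for bounds where IMQ had no UMI, whose intervals have no lower end and are drawn short. Lars2, Igfbp2 and Ccnd2 keep their place without the Malat1-rich members, while Mt2 moves from 3.40 to 0.54 and Tnfaip6 from 3.40 to -1.51.

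The lists were read on the same scale, against 12.2% of all measured genes called higher in IMQ members and 15.3% lower. Of 10 interstitial matrix genes 5 were called higher and 1 lower, with a median of 1.00, and without the members rich in Malat1 6 and 2 with a median of 1.05. In barcodes without a marker 8 of 11 were called higher and 1 lower, with a median of 1.53. Of 13 basement membrane and FACIT genes 6 were called higher and 1 lower, and of 7 general fibroblast markers 4 were called higher and none lower. Of 7 secreted Wnt antagonists none was called higher and 4 lower, with a median of -1.09. Without the members rich in Malat1 2 antagonists were measured and 1 called lower, with a median of -0.05, and in barcodes without a marker 1 of 5 was called higher and none lower. Of 7 Wnt target genes 2 were called lower, and 2 of 3 without the members rich in Malat1. All 4 measured keratinocyte genes were called lower, but without those members, among them the pair with 911 and 956 keratinocyte UMIs, 1 was measured and not called. The members rich in Malat1 numbered 28 in UT and 5 in IMQ, and their part in these lists was not tested beyond the values given without them.

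Tnc and Coch, genes that the study measured in UT and IMQ dermis, were sparse in members, and Tnc was sparse outside them too. The study reported both as higher in IMQ than in UT, in RNA and protein of the dermis and not of these members. Tnc, which encodes tenascin-C, had 3 UMIs in 2 UT members and 0 among the 124359 UMIs of IMQ members, and no ratio is given. All barcodes within the limits without a marker held 0 Tnc UMIs in UT and 1 in IMQ. Coch, which encodes cochlin, had 66 UMIs in 8 paired UT members, 38 of them in 1 barcode, and 94 in 9 pairs, 39 of them in 1 barcode (-0.65, from -1.13 to -0.18). Against all UT barcodes without a marker Coch was at -0.0004 (-0.45 to 0.44). IMQ members held 5 Coch UMIs in 2 barcodes. For IMQ over UT, the raw log2 ratio of Coch was -1.84 (-3.51 to -0.54) in members and -2.05 (-2.74 to -1.42) in barcodes without a marker. Relative to the median gene these were -1.29 and -1.39. Why Coch ran the other way from the study's dermis was not tested. Pdgfra had 21 UMIs in 17 UT members and 5 in the pairs (1.93, from 0.48 to 3.69), and 15 of the 23 Pdgfra UMIs of all UT members lay in those rich in Malat1. In IMQ it had 2 and 5.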

How the data were processed

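The authors sorted live CD45-negative tdTomato-positive dermal cells, made libraries with the Chromium 3′ kit (version 3) and deposited UMI counts per gene and barcode for each library, with no normalization. Cell Ranger 3.0.0 wrote the UT matrix and 3.1.0 the IMQ matrix, per the file headers, and the submitters' processing notes name CASAVA, Cell Ranger and mm10. The annotation and the use of strand are not given in the sources used here. Of 31053 gene identifiers 31011 were found in GENCODE M21 (GRCm38), the source of all coordinates. Since the study counted more IMQ cells after its filter than the deposited IMQ matrix has barcodes, IMQ values describe that matrix only.

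The members and lists were chosen with earlier results of these data known. Members were selected by the 7 marker counts within 200 to 5000 genes and a mitochondrial maximum of 10%, where the study used 5%. Each member was paired without replacement with the barcode of marker sum 0 nearest in total UMIs, within 0.5 on the log2 scale. UMIs were summed per set and divided by the summed totals. Sums have exact Poisson intervals, shares Clopper-Pearson intervals and ratios conditional binomial intervals, at 95% (scipy 1.17.1). A sum of 0 was set to 3 counts and the ratio given as a bound, and no ratio is given where both sums were at most 3. Genes with at least 20 UMIs over both sets counted as measured. UMIs are counted molecules, but the intervals hold no variation between mice. No test was possible with 1 library per group.

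Genes named in the text were, apart from mitochondrial, ribosomal protein and rRNA-like genes, the 15 highest and 10 lowest by the interval bound nearest 0 in both libraries, the 5 highest and 3 lowest in each, the 8 highest and 8 lowest for IMQ over UT, up to 4 of each list, and Tnc, Coch, Pdgfra and Crabp1, with a UMI in at least 5 barcodes. The 20 genes that led in UT follow the same order. A gene that this order also picked is not reported here. Other list members and genes called in both libraries were named after their values had been seen. Doublets were scored with Scrublet (scanpy 1.11.5) as an alternative only, which removed 14 UT barcodes, 6 of them members, and 9 IMQ barcodes, none of them members. Lists without a mention in the text (mast cell, adipocyte, Schwann cell and melanocyte, proliferation) had no measured gene in paired sets, T cell markers had 1 gene measured and none called in each library, and mural, dermal sheath and interferon lists had 2 measured and none called in UT. In IMQ 1 of 2 interferon genes was called lower. The selection, pairing and interval code was checked on simulated counts.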

Additional observations from a re-analysis of the deposited data

Results flagged for a closer look

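Socs3, a feedback inhibitor of cytokine signalling, lay on opposite sides in the libraries. In UT it had 49 UMIs in 13 members and 11 in 7 pairs, a log2 ratio of 2.01 (1.05 to 3.105), and in IMQ 21 in 5 members and 45 in 2 pairs, a log2 ratio of -1.04 (-1.86 to -0.26). The difference was not tested, since each group had 1 library.

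Marker UMIs were also counted in barcodes outside the limits on detected genes and mitochondrial share, which no comparison used. There were 33 such UMIs in 13 UT barcodes and 172 in 132 IMQ barcodes. In IMQ barcodes outside the limits there were also 72 Prlr, 81 Slc26a7 and 65 Pappa2 UMIs, of which 68, 63 and 52 lay in 1 barcode with more than 5000 detected genes and 48937 UMIs. That barcode carried all 20 genes that led in UT members, with 1094 UMIs, 320 of them from Igfbp3.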

How the results depend on the processing

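No paired analysis was possible because the groups share just replicate number 1. The choice that moved most values was the treatment of deep, Malat1-rich barcodes, an alternative chosen after seeing the data, as were Rspo1 alone in the rule and the limit of 2000 UMIs.

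The UT share of members went to 39.1% with at least 500 genes, 6.84% with a marker sum of at least 2, 18.4% without Nkd1 and 12.1% without Rspo1, and the IMQ share to 29.1%, 2.11%, 7.96% and 4.79%. Genes higher in UT members numbered 820 with no depth match, 842 and 1448 with a minimum of 10 and 4 UMIs, 120 under 10 Malat1 UMIs, 174 with Rspo1 alone, 87 without barcodes over 2000 UMIs and 206 when every barcode was thinned first. Genes lower in UT numbered 167 under TMM, 297 and 643 with the minimums of 10 and 4, and 301 when thinned. In IMQ, genes higher numbered 16 with a mitochondrial maximum of 5%, 20 with a marker sum of at least 2, 478 with no match, 103 with up to 3 matches, 220 and 593 with the minimums of 10 and 4, 27 under 10 Malat1 UMIs and 225 when thinned. Genes lower in IMQ numbered 17, 9, 207, 102, 201, 576, 22 and 115 in the same order, 15 without Rspo1 in the rule and 18 without barcodes over 2000 UMIs. Wnt targets called in UT went to 3 with up to 3 matches, 1 under 10 Malat1 UMIs and 1 when thinned, antagonists to 2, 1 and 1, papillary markers to 7 with either lower minimum, 0 under 10 Malat1 UMIs and 1 when thinned, and stress genes to 1 under 10 Malat1 UMIs. For IMQ over UT, genes higher numbered 270 with a marker sum of at least 2, 773 and 1705 with the minimums of 10 and 4, 231 under 10 Malat1 UMIs and 157 without barcodes over 2000 UMIs. Genes lower numbered 1062, 1657, 307 and 244 under the latter 4. Fewer barcodes or UMIs enter most of these settings by construction; beyond that the cause was not tested.

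The sign turned when every barcode was thinned first for Ier3 (-0.27), Calm2 (-0.077), Cd74 (0.71), Cebpb (-0.59) and Sparcl1 (0.58) in IMQ and Gas1 (-0.045) in UT, without barcodes over 2000 UMIs for Errfi1 (-0.36), Fos (-0.26) and Junb (-1.44) in UT, without a depth match for Tsc22d1 in IMQ (1.39), and under 10 Malat1 UMIs for Tnfaip6 of IMQ over UT (-1.51). Of the other single-gene values, 391 left the counting interval of the reported value without a turn of a called sign and 1407 stayed within it, and 157 summary values stayed close to those reported. At these depths a gene under 20 UMIs in both sets, such as Tnc, cannot be compared.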
